A study of Mus musculus with 2 samples.

Results

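The nuclear-encoded subunits of the mitochondrial respiratory chain were compared between crypts with and without Lpcat3 in the epithelium. Members were the genes whose single annotated symbol begins with Nduf (followed by a, b, c, s or v), Uqcr, Atp5, Cox4i, Cox5, Cox6, Cox7 or Cox8, or is Sdha, Sdhb, Sdhc, Sdhd, Cyc1 or Cycs. The rule gave 92 genes read by 184 probe sets, of 18193 named genes in all. It also takes in the 8 Ndufaf genes, which encode assembly factors of complex I and not subunits, and these are described apart.

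The control pool came from small-intestinal crypts of Lpcat3 F/F mice, in which both Lpcat3 alleles are floxed. The knockout pool came from Lpcat3 F/F mice that also carried Villin-CreERT2, a Cre recombinase activated by tamoxifen under the villin promoter, which is active in the intestinal epithelium and not in immune or stromal cells. All mice were 8 to 10 weeks old, all were injected with tamoxifen on 5 days (1 mg each day), and crypts were isolated 2 weeks later. Each genotype is 1 pool of RNA from 5 mice on 1 Affymetrix array. No test of genotype was therefore possible, and the small number of arrays sets the precision. Only the knockout mice carried Cre, so effects of Lpcat3 loss, of the transgene, of the pool and of the array itself cannot be told apart.

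The respiratory chain passes electrons from NADH (complex I) and succinate (complex II) through ubiquinone to complex III, then by cytochrome c to complex IV, where oxygen is reduced. Complexes I, III and IV pump protons across the inner mitochondrial membrane, and complex V, the ATP synthase, uses their return to make ATP. Complex II is encoded wholly in the nucleus, whereas the other complexes combine nuclear subunits with a few encoded by mitochondrial DNA. In the intestinal crypt, mitochondrial respiration is known to support stem cells. Lpcat3 places polyunsaturated fatty acids into membrane phospholipids.

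Many promoters of this family are known to be bound by NRF1, by ETS factors such as GABPA, by YY1 and by the estrogen-related receptor ERRA. The reference table of RefSeq promoters (GRCm38.p6) held 75 of the 92 genes. The promoters of cytochrome c, of an assembly factor, of an ATP synthase subunit and of a complex III subunit show the NRF1 and ETS cores of this family in place. Each stretch lies upstream of the annotated start, runs 5′ to 3′ on the strand of the gene, and has its motif letters in capitals. In Cycs, Ndufaf4 and Atp5k the NRF1 core is read on both strands and the overlapping matches join into a palindrome. In Uqcr11 the capitals mark an ETS core. Outside the stretches shown, Uqcr11 also had an NRF1 core, and Atp5k had ETS and ERRA cores.
Cycs (chr6:50566570-50566689, minus strand, GRCm38.p6): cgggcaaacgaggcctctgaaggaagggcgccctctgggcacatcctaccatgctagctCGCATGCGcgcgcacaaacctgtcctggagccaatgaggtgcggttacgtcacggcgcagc
Ndufaf4 (chr4:24897943-24898062, plus strand, GRCm38.p6): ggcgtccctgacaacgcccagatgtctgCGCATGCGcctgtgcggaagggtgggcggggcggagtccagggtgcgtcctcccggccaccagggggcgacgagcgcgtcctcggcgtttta
Atp5k (chr5:108434400-108434519, minus strand, GRCm38.p6): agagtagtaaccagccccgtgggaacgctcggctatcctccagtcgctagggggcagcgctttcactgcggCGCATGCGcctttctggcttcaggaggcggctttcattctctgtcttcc
Uqcr11 (chr10:80406822-80406941, minus strand, GRCm38.p6): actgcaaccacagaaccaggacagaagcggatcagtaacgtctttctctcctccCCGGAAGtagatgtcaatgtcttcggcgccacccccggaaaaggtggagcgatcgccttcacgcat

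Values are MAS5 signals on a linear scale. Signals under the median of all values of both arrays (92.9) were raised to that floor, a gene below it on both arrays counts as not measured, and a ratio is the log2 of knockout over control signal from the gene's brightest probe set. The targeted gene, Lpcat3, read 4691 in control and 928 in knockout (5.06-fold lower). All 9 epithelial markers were measured, 5 higher and 4 lower, with a median log2 ratio of 0.17 and a range of -0.43 to 0.44. Markers of several cell types differed between the pools. The 9 T and natural killer markers were all lower (summed signal 20215 in control, 3518 in knockout), and all 6 measured B and plasma cell markers were higher (1440 and 5043). Lower too were all 7 crypt base stem cell markers (38664 and 25180) and all 6 measured Paneth markers (114318 and 70271). All 4 measured tuft markers (2603 and 1212 over the 5 listed), 6 of 7 enteroendocrine markers (19047 and 11773) and 6 of 7 measured proliferation markers (42738 and 35617) were lower too. The 11 measured enterocyte markers summed to 212285 in control and 254801 in knockout, with 8 of them higher and 3 lower. Their log2 ratios ran from -1.36 to 1.20, so the sum does not stand for each marker. Every one of these markers had a signal above 0. In pooled tissue, fewer cells of a type and less RNA per cell cannot be told apart, and the part of cell composition in the values below was not tested.

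The respiratory chain genes differed little between the pools. Of the 92 genes 88 were measured, 87 of them on both arrays, and their median log2 ratio was 0.069 (1.05-fold higher), against -0.042 over all 11496 measured genes. In the knockout pool 64 of the 88 were higher and 24 lower, where 44.9% of all measured genes were higher and 55.1% lower. A log2 ratio of at least 0.32 in size, which is a signal 25% higher or the equal fold lower, was reached upward by 6 members (background 14.1%) and downward by 4 (background 21.8%). At 1.5-fold there were 2 higher (background 4.76%) and 2 lower (background 8.74%). None of the 88 reached 2-fold, past which 1.41% of all measured genes were higher and 2.32% lower.

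The small shift above 0 was shared with other bright genes. The measured members had a median signal of 11157, and the middle 50% of them lay between 7334 and 19555. Among the 408 other genes in that range the median ratio was 0.088, with 63.5% higher and 36.5% lower. Of these genes 16.2% were past 0.32 upward and 8.33% downward, 5.39% were 1.5-fold or more higher and 2.45% lower, and 1.23% passed 2-fold in each direction. Quantile normalisation, which removes such a trend, left 51 members higher and 35 lower with a median of 0.034, and lowess, an intensity-dependent correction, left 51 higher and 37 lower with a median of 0.026. Under each of them 58.0% of members were higher, against 47.9% of all measured genes after quantile normalisation and 47.3% after lowess. The size of the lean thus depended on scaling, while the median stayed above 0 under each scaling tried. Their narrow spread was less usual: 93.2% of the 44 members in that signal range had ratios under 0.32 in size, compared with 75.5% of the 408 other genes, and the interquartile range of the ratio was 0.17 for those members against 0.32 for the others. No test of this difference was made.

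**Figure D1:**
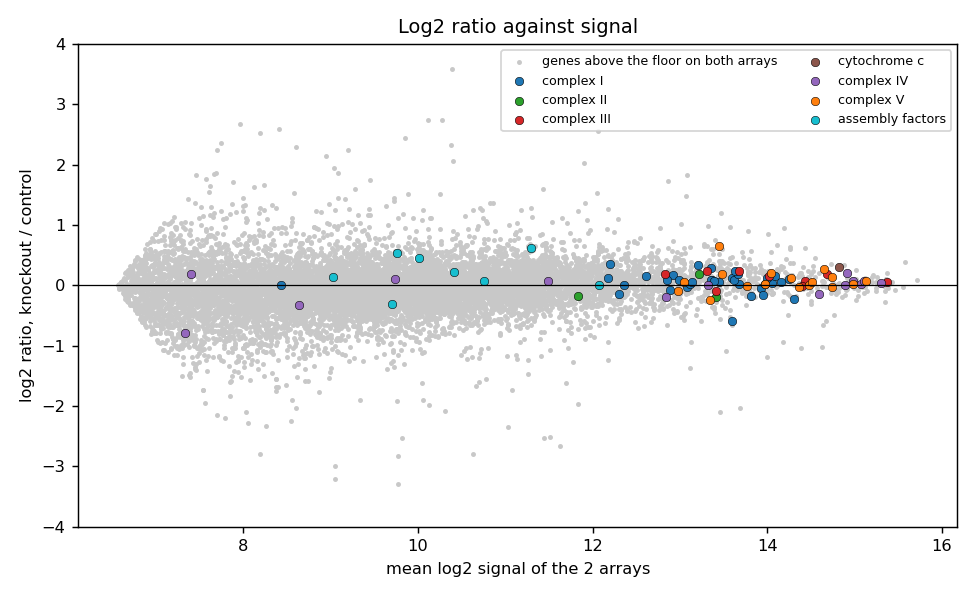
Log2 ratio (knockout over control, y axis) against the mean log2 signal of the 2 arrays (x axis). Grey points are genes above the floor on both arrays and coloured points are the 87 respiratory chain genes among them; most sit at the bright end, close to 0, and the dimmer coloured points are mainly assembly factors and tissue isoforms.

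The error of a ratio was taken from different probe sets of 1 gene. Over 161 genes with a pair of probe sets at 7334 or more it had an SD of 0.11 (1.08-fold), and over all 4582 genes with a pair above the floor an SD of 0.28. Variation among mice or pools is not part of it. Members with several probe sets at or over the floor in both pools numbered 48, and in 36 of them the second probe set had the sign of the brightest. Of 41 members with several probe sets at 1000 or more on both arrays, 36 had all of these within 0.25 of each other. The exceptions were Ndufa3, Ndufaf4, Uqcr10, Ndufs8 and Ndufab1, which were picked out after their values were seen.

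**Figure D2:**
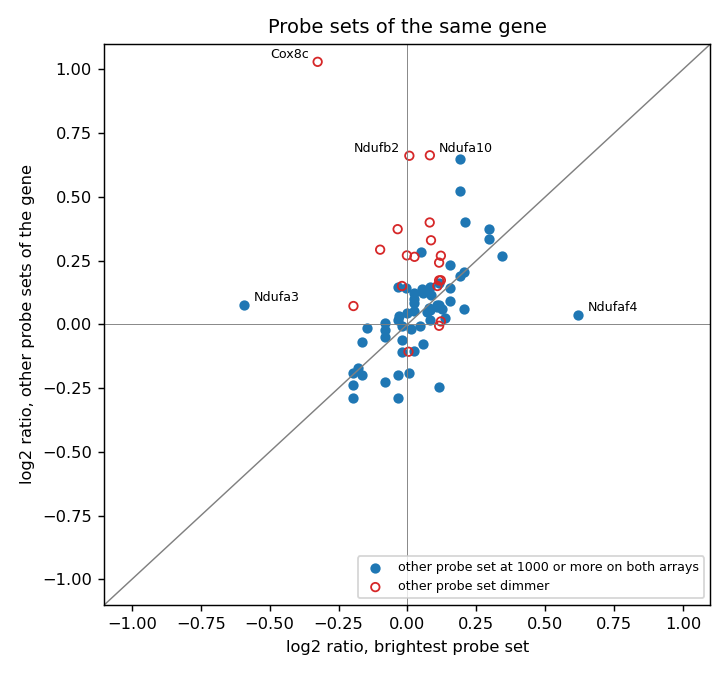
Log2 ratio by the brightest probe set of each member (x axis) against that by its other probe sets that passed the floor in both pools (y axis), with the line of equality. Filled points have 1000 or more on both arrays and lie near the line apart from a few such as Ndufa3 and Ndufaf4, whereas open points, which are dimmer, scatter more widely.

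Complex I takes electrons from NADH and is the largest complex of the chain. Of its 36 genes 35 were measured, 26 higher and 9 lower, with a median ratio of 0.069. Among other genes in the members' middle range of signal 63.5% were higher, and 44.9% over all measured genes. The core subunits carry the flavin and the iron-sulfur clusters, and the 6 of them measured lay closest to 0, with a median of -0.0034 and a range of -0.14 to 0.17. Ndufs1, which holds several of the clusters, read 5313 in control and 4833 in knockout (-0.14). Ndufv1, which binds NADH and the flavin, read 8814 and 8950 (0.022). Ndufs3 was the highest of the 6, at 7333 and 8224 (0.17). All 6 were under 0.32 in size by their brightest probe sets. Other probe sets of Ndufs8 ran from -0.29 to 0.37, the latter dim, and those of Ndufv1 gave 0.082 and -0.10.

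The accessory subunits surround that core. In the distal membrane arm, made of the Ndufb proteins and the acyl carrier protein Ndufab1, 10 of 11 measured genes were higher, with a median of 0.060. Over all measured genes 44.9% were higher, and 63.5% of other genes in the members' middle range of signal. Ndufb1 (0.0049) and Ndufb2 (0.0071) were barely higher. The next probe sets of Ndufb2 (-0.19) and Ndufab1 (-0.24) were lower. Ndufb6 read 8403 in control and 10663 in knockout (0.34), and its other probe set gave 0.27. Ndufb11 read 16771 and 14968 (-0.16) and was the 1 lower gene of this arm, with -0.069 and -0.20 by its other probe sets. Ndufb4 had no probe set above the floor under its own symbol alone (47.3 and 68.8). The remaining 17 accessory subunits had a median of 0.11, and 13 were higher.

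Among those 17, Ndufs5, an accessory subunit of the membrane arm, read 4150 in control and 5306 in knockout (0.35, 1.28-fold higher), the highest ratio of complex I. Ndufa8 read 9474 and 11570 (0.29) and Ndufv3 read 11669 and 13720 (0.23). At the other end Ndufa3 read 15246 and 10118 by its brightest probe set (-0.59, 1.51-fold lower). A second probe set of Ndufa3 read 9893 and 10436 (0.077), so that the probe sets of this gene gave opposite directions. Ndufa1, a small membrane subunit, read 21960 and 18790 (-0.22), and Ndufa13, also known as the cell death regulator GRIM-19, read 15299 and 13609 (-0.17). Ndufa4, now known as a subunit of complex IV despite its name, read 16802 and 17190 (0.033). Its hypoxia-inducible relative Ndufa4l2 read 123 in control and lay below the floor in knockout, so it was at least 1.33-fold lower, close to the floor on the brighter array.

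The 8 assembly factors named Ndufaf help to build complex I and are absent from the finished enzyme. Their median was 0.18, with 7 higher and 1 lower, where 44.9% of all measured genes were higher. Ndufaf4 read 2023 in control and 3111 in knockout (0.62, 1.54-fold higher) by its brightest probe set, but 1778 and 1824 (0.037) by its other. Ndufaf6 read 721 and 1046 (0.54) and Ndufaf2 read 880 and 1204 (0.45), each by its only probe set. Ndufaf7, a methyltransferase, was lower at 925 and 748 (-0.31). All 8 had signals under the members' lower quartile of 7334, and the probe-set error over all genes (0.28) exceeds that of bright genes.

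Complex II, succinate dehydrogenase, also serves in the citric acid cycle. Its 4 genes went both ways and had a median of -0.083. Sdha, the flavoprotein that oxidises succinate, read 11646 in control and 10167 in knockout (-0.20), its next probe set gave -0.29 and a dim one 0.072. Sdhc, a membrane anchor, read 3899 and 3440 (-0.18), with -0.17 by its other probe set. The iron-sulfur subunit Sdhb read 16066 and 16234 (0.015). The other anchor, Sdhd, read 8892 and 10149 (0.19), with the same 0.19 by its other probe set. The brightest and the next probe set gave the same direction for Sdha, Sdhc and Sdhd. Both probe sets of Sdhc and the second of Sdhd were dimmer than the bright genes, and their ratios lay within the error over all genes (SD 0.28). All 4 genes stayed under 0.32 in size.

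Complex III, the cytochrome bc1 complex, had a median of 0.16, the highest of the complexes with several genes, and 7 of its 9 genes were higher. For comparison, 63.5% of other genes in the members' middle range of signal were higher, and 44.9% of all measured genes. Uqcrfs1, the Rieske iron-sulfur protein, read 9366 in control and 11082 in knockout (0.24), and Cyc1, the cytochrome c1 that hands electrons on, read 24602 and 28075 (0.19). Both catalytic subunits were thus higher. The small subunit Uqcr11 read 12028 and 14242 (0.24). Uqcr10 read 6839 and 7809 (0.19) by its brightest probe set, while its dimmer probe sets gave 0.65 and 0.52. Of the core proteins, Uqcrc1 was at 0.16 and Uqcrc2 at 0.072. The lowest were Uqcrq, at 11327 and 10576 (-0.099), Uqcrh, at 21591 and 21488 (-0.0069), and Uqcrb, at 41561 and 43058 (0.051), all within 1 SD of the error. The other probe sets of Uqcrb (0.29) and Uqcrh (0.14) were higher. Without probe sets that can bind several transcripts Uqcrq was at 0.29, but this value came from signals close to the floor. They were 113 in control and 138 in knockout. A further dim probe set of Uqcrq read 111 in control and lay below the floor in knockout (-0.26). Under every alternative setting the median of complex III stayed above 0, between 0.091 and 0.24.

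Cytochrome c, encoded by Cycs, is the mobile carrier between complexes III and IV. It read 26210 in control and 32220 in knockout (0.30, 1.23-fold higher). Its other bright probe sets read 14447 and 18710 (0.37) and 12845 and 16219 (0.34). The dim last probe set read 78.1 and 130, above the floor only in knockout (at least 1.40-fold higher). All 4 probe sets of Cycs were thus higher in the knockout pool.

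**Figure D3:**
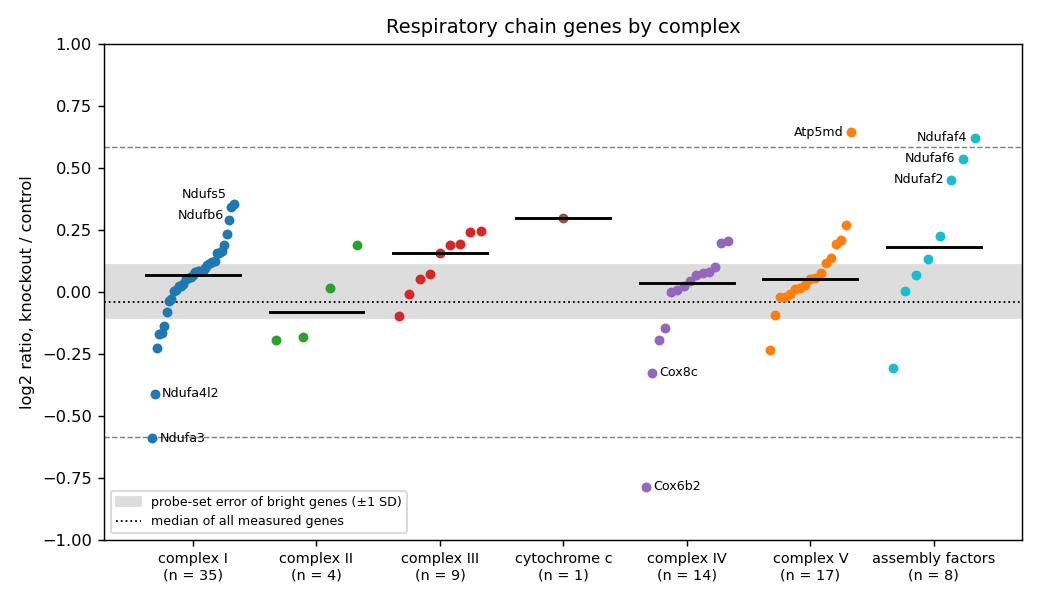
Log2 ratio of each of the 88 measured genes (points), by complex, with the median of each group (black bar). The grey band is 1 SD of the probe-set error of bright genes on either side of 0, the dotted line the median of all measured genes (-0.042), and dashed lines mark 1.5-fold; only Atp5md and Ndufaf4 lie above and only Ndufa3 and Cox6b2 below the dashed lines, and genes past 0.32 in size are named.

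Complex IV, cytochrome c oxidase, is regulated in part by isoforms of its nuclear subunits that differ between tissues. The 9 generally expressed isoforms had a median of 0.044, with a range of -0.15 to 0.20 and none past 0.32 in size. Cox4i1 read 30311 in control and 30507 in knockout (0.0093), and Cox7a2 read 39715 and 40950 (0.044). Cox6a1, at 34166 and 34759, Cox6b1, at 34355 and 36264, Cox8a, at 10223 and 10210, and Cox7c, at 822 and 880, had ratios of 0.025, 0.078, -0.0018 and 0.099. Cox5a was highest, at 28685 and 33059 (0.20), although its next probe set gave 0.061. Cox6c was lowest, at 26072 and 23539 (-0.15), with -0.016 by its other probe set. Most of these signals exceeded 20000, in the upper range of the arrays, where differences can be compressed. The supercomplex factor Cox7a2l, which links complexes III and IV, read 7858 and 6861 (-0.20), and its other 2 probe sets gave -0.19 and -0.24. All 3 probe sets of Cox7a2l were lower.

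Of the tissue isoforms of complex IV, Cox7a1 read far above the floor and Cox8c moderately above it by its brightest probe set. The others were near or below the floor. Cox4i2, an isoform known from lung (68.9 and 39.9), Cox7b2 (26.4 and 26.6) and Cox8b (11.6 and 3.96) were below the floor on both arrays. Cox6b2, known from testis, read 211 in control and 122 in knockout (-0.79), the lowest ratio of all members and close to the floor. Cox8c, also known from testis, read 446 and 356 (-0.33) by 1 probe set but 105 and 215 (1.03) by another. Cox6a2, known from heart and skeletal muscle, read 157 and 180 (0.20). Cox7a1, likewise known from muscle and brown fat, read 2807 and 2947 (0.070). Of 9 striated muscle markers 2 were above the floor on an array (all 9 summed to 407 in control and 347 in knockout), and none of the 3 brown fat markers with a probe set was.

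Complex V had a median of 0.054 over 17 genes, all measured, with 12 higher and 5 lower. The share higher was 63.5% among other genes in the members' middle range of signal and 44.9% over all measured genes. Atp5md, a small membrane subunit also called DAPIT that helps to join ATP synthases into dimers, stood apart at 8934 in control and 13967 in knockout (0.64, 1.56-fold higher). It was the highest ratio of all members and was read by a single probe set. In the catalytic F1 head, the beta subunit Atp5b read 23401 and 28242 (0.27) while the alpha subunit Atp5a1 read 21169 and 20886 (-0.019). The epsilon subunit Atp5e, at 11255 and 9554 (-0.24), was the lowest of the complex. The head therefore held both ends of the complex apart from Atp5md.

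Of the 3 genes that encode the same membrane-spanning c subunit with different import sequences, Atp5g1 read 10744 and 12286 (0.19), Atp5g2 read 8309 and 7799 (-0.091) and Atp5g3 read 34932 and 36807 (0.075). The peripheral stalk, which holds the head in place, was higher in all 4 genes with a median of 0.098, led by Atp5o at 15723 and 18184 (0.21). Over all measured genes 44.9% were higher, and 63.5% of other genes in the members' middle range of signal. Atp5j (0.017) and Atp5h (0.057) lay within the probe-set error of 0.11, and the other probe set of Atp5h gave -0.075. The other membrane subunits were near 0, with Atp5k at 0.12, Atp5mpl at 0.054, Atp5l at -0.0072 and Atp5j2 at -0.020 (27598 and 27224). Mitochondrial DNA contributes subunits to complexes I, III, IV and V, and 1 of these, ND5 of complex I, was named by a probe set. It read 52434 in control and 55724 in knockout (0.088), and its ratio was -0.090 after quantile normalisation. ND5 was the brightest value on the control array but not on the knockout array, where the highest was 58616.5. Quantile normalisation therefore could not give it a ratio above 0, and no conclusion is drawn from that sign.

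Promoter sequence was not used to choose the genes. The 7-letter cores GCATGCG (NRF1), AAGATGG (YY1), CCGGAAG (ETS) and AAGGTCA (ERRA) were searched on both strands in the 80 promoters of 300 bases of the 75 genes. The NRF1 core was in 16.2% of them, against 3.58% of all 32851 promoters in the reference and 6.64% of those of other genes at or above the members' lower quartile of signal. The YY1 core was in 13.8% (6.34% and 6.83%), the ETS core in 23.8% (8.86% and 17.9%) and the ERRA core in 8 of the 80 (4.72% and 5.90%). Any of the 4 cores was in 39 of the 80 member promoters (48.8%), against 21.4% of all and 30.4% of those of the bright genes, so that 41 held none of them. No test of these shares was made. Median GC content was 59.0% in member promoters, 52.7% over all and 60.7% for the bright genes. No 2 matches of different motifs overlapped. Members with a core had median ratios of 0.12 (NRF1, 13 genes), 0.086 (YY1, 11), 0.052 (ETS, 19) and 0.075 (ERRA, 7). Those without had 0.075, 0.075, 0.085 and 0.078, and no test of these differences was made.

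**Figure D4:**
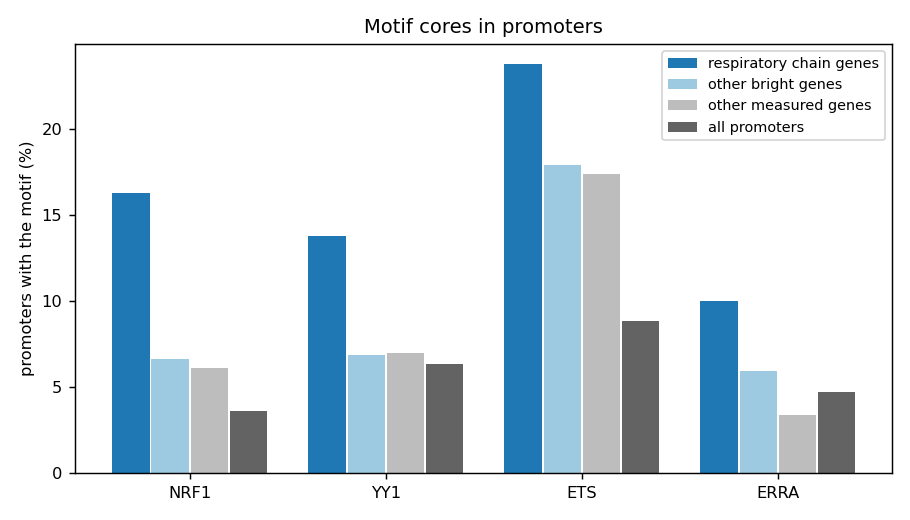
Share of promoters of 300 bases (percent, y axis, from 0) that hold each 7-letter core on either strand, for the 80 promoters of respiratory chain genes, those of other bright genes, those of other measured genes and all promoters in the reference. The respiratory chain bar is the highest for each of the 4 motifs, 16.2% for NRF1 and 23.8% for ETS.

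The rest of the mitochondrial programme was read from lists written from textbook knowledge. Regulators of mitochondrial biogenesis and mitochondrial DNA had a median of -0.095 over 29 genes, with 11 higher (37.9%, against 44.9% of all measured genes) and 18 lower. At least 1.5-fold lower were 2 of the 29, or 6.90%, where the share over all measured genes was 8.74%, so these counts lay near the background. Esrrg, a nuclear receptor that drives oxidative genes, read 673 in control and 383 in knockout (-0.81), with -0.55 by its other probe set above the floor. Gabpb1, the partner of GABPA, read 406 and 261 (-0.64) but 0.25 by its other probe set. Tfb2m, needed to start mitochondrial transcription, read 1929 and 1356 (-0.51). Polrmt, the mitochondrial RNA polymerase, was highest at 1808 and 2422 (0.42), followed by Esrrb (0.42), which was close to the floor, and Ppargc1b (0.37). The other probe set of Polrmt gave 0.093. Another probe set of Esrrb read 114 in control and lay below the floor in knockout (-0.29).

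Lists of genes that build mitochondria had medians above 0. Of 76 mitochondrial ribosomal protein genes 64 were higher, 16 past 0.32 and none past -0.32, with a median of 0.14. These are 84.2% higher and 21.1% past 0.32, where over all measured genes 44.9% were higher, 14.1% past 0.32 and 21.8% past -0.32. Of other genes as bright as the respiratory chain 63.5% were higher. Most of the ribosomal genes were dimmer than that range, so this share is not matched to them by signal. Mrpl20 (0.60), Mrpl54 (0.55) and Mrpl10 (0.55) were highest, and Mrps31 (-0.13), Mrps17 (-0.10) and Mrps2 (-0.077) lowest. Genes of protein import and cristae had a median of 0.19 over 39 genes, with 28 higher (71.8%), 12 past 0.32 (30.8%) and 1 past -0.32. The translocase genes Timm22 (0.93, but 0.022 by its dim second probe set), Timm17a (0.58) and Timm13 (0.49) were highest, and Tomm34 (-0.33), Tomm70a (-0.13) and Opa1 (-0.13) lowest. Other probe sets above the floor gave 0.42, 0.088 and -0.49 for Tomm70a, and 0.31 and 0.11 for Opa1.

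Assembly factors of complexes II to V had a median of 0.10 over 42 genes, with 32 higher (76.2%, against 44.9% of all measured genes). Past 0.32 were 5 (11.9%) and past -0.32 were 3 (7.14%), where the shares over all measured genes were 14.1% and 21.8%. Coa7 (0.68, but -0.63 by its other probe set), Cox15 (0.55) and Cox11 (0.53) were highest. Sco2 (-0.47), Uqcc3 (-0.37) and Atpaf1 (-0.37, but 0.027 by its other probe set) were lowest. The wider complex I assembly list, which shares the 8 Ndufaf genes, had a median of 0.089 over 17 genes. Its lowest members were Tmem126b (-0.57), Nubpl (-0.46) and Acad9 (-0.38), and its highest the Ndufaf genes named above. A second probe set of Acad9 gave -0.049. Coenzyme Q genes had a median of 0.27 over 12 genes, and of 0.14 over 10 genes with the floor at the 70th percentile. Coq3 (0.67), Coq10a (0.50) and Coq7 (0.43) were highest. Coq8a (-0.41, but -0.035 by its dimmer probe set), Coq6 (-0.29) and Coq2 (-0.21) were lowest.

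Genes of cardiolipin, the phospholipid of the inner membrane on which these complexes depend, had a median of 0.14 over 10 genes and none at least 1.5-fold different. Ptpmt1 (0.37), Tamm41 (0.26) and Triap1 (0.24) were highest. Lclat1 (-0.41) and Taz (-0.36), which act on its acyl chains, were lowest, followed by Pgs1 (0.021). Other probe sets of Pgs1 gave 0.66, 0.47 and -0.53. Other carriers and electron entry points had a median of 0.026 over 14 genes. There the ADP/ATP carrier Slc25a4 read 804 in control and 1307 in knockout (0.70), with 0.87 and 0.82 by its other probe sets above the floor. Gpd2 (0.30) and Etfb (0.28) followed, and Aifm2 (-0.40), Vdac1 (-0.21) and Nnt (-0.19) were lowest. Other probe sets of Vdac1 above the floor gave 0.068, -0.15 and 0.082.

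**Figure D5:**
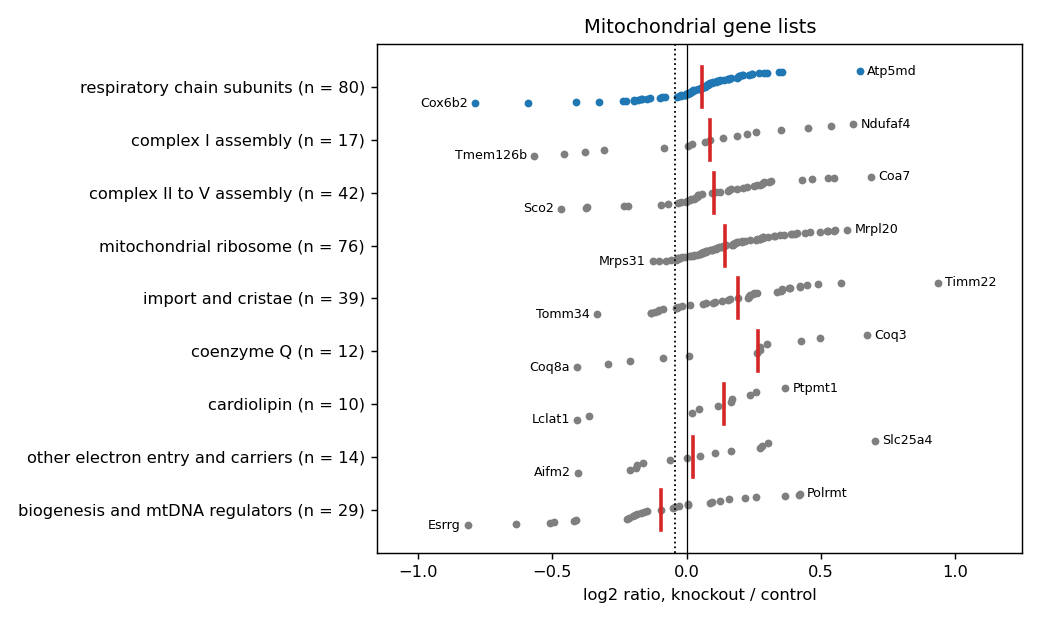
Log2 ratio (knockout over control, x axis) of each measured gene of the respiratory chain (top row, without assembly factors) and of the other mitochondrial lists, with the median of each in red and the lowest and highest gene named. The dotted line is the median of all measured genes (-0.042); only the regulators have a median below it (-0.095).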

How the data were processed

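The deposited values are linear signal intensities of 45101 probe sets on 2 arrays, and per the submitters' processing notes the authors used MAS5 to make them. Neither the version nor the options of MAS5 stand in the sources used here. The method combines perfect-match and mismatch probes. Each array had a mean of 500.003 once its lowest and highest 2% were dropped, and no further scaling was applied. The 64 control probe sets were set aside. Of the rest, 34945 had 1 gene symbol, 932 several and 9160 none here; symbols were updated through Entrez identifiers to RefSeq (GRCm38.p6) for 34741. The members, lists, roles and fold limits (log2 0.32, 1.5-fold and 2-fold) were chosen with earlier results of these data known. By rule, every member could be named, and both signals are given for the 3 highest and 3 lowest of each complex, members past 1.5-fold, isoform families, complex II and members not measured on both arrays. Outside the members, Lpcat3 and the 3 highest and 3 lowest of each list were named. Ratios were computed with pandas 2.3.3 and statsmodels 0.14.6 (lowess span 0.3) and tested on simulated data. Alternatives changed the floor, scaling, probe set and bright members. Probe sets ending in _s_at, _x_at or _a_at can bind several transcripts.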

Additional observations from a re-analysis of the deposited data

How the results depend on the processing

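No paired analysis was possible because there is a single array per group, which also means that no array could be left out. A value is said to move where it shifts by over 0.11, the probe-set error of bright genes, and a count where it shifts by over 1.5 times. Under the alternatives the median of all members stayed between 0.026 and 0.11, that of complex I between 0 and 0.12, II between -0.13 and 0.015, IV between -0.0096 and 0.074 and V between -0.0010 and 0.093. Ndufa3 reversed, to 0.077, both as the median over its probe sets and without _s_at, _x_at and _a_at probe sets. Of 747 member values under alternatives 719 did not move by that measure. Counting every sign, 52 were opposite to the reported value, 10 of them, in 9 members, shifted by at least 0.11, among them Cox8c (0.35 as the median over probe sets), and Ndufab1 (-0.24) and Uqcrq (0.29) without _s_at, _x_at and _a_at probe sets. Without _s_at, _x_at and _a_at probe sets (69 members measured), 10 members passed 0.32, 1 was 1.5-fold or more lower, and the assembly factor median was 0.34. Lowering the floor to the 30th percentile made 4 members 1.5-fold or more lower. At the 70th percentile 2 passed -0.32, 1 was 1.5-fold or more lower, and the coenzyme Q median was 0.14. With the median over probe sets 2 passed -0.32, and 1 was past 1.5-fold in each direction. Quantile normalisation left 1 past 1.5-fold upward and put ND5 at -0.090, a sign fixed by its top rank on the control array alone. After lowess 37 members were lower, as were 52.7% of all measured genes. Centred on the median of all genes, 1 was past 1.5-fold downward and 71 members were higher (80.7%, against 49.6% of all measured genes). Signals near the floor limit Cox6b2, Ndufa4l2, Cox6a2 and the Uqcrq value of 0.29, and those above 20000 on either array (23 members) may be compressed.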

Other observations

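Some probe sets were annotated with a respiratory chain gene together with a close copy or a neighbour, and entered no count. Those shared by Ndufb4, Ndufb4b and Ndufb4c read 8700 in control and 8352 in knockout, and 4623 and 4438 (log2 ratio -0.059 each). The probe set of Ndufs6 and Ndufs6b read 8873 and 9360 (0.077), and the brighter one of Ndufa11 and Ndufa11b 4525 and 4892 (0.11). The probe set of Ndufs5 and its pseudogene read 3733 and 5176 (0.47), in the direction of Ndufs5 itself (0.35). The probe set of Ndufab1 and its pseudogene read 11250 and 12532 (0.16). A dim probe set annotated with Ndufb2 and Adck2 read 219 and 95.4 (-1.20), whereas the brightest probe set of Ndufb2 alone gave 0.0071.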
